A study of Mus musculus with 61 samples.

Results

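Mouse mitochondrial DNA encodes 13 proteins, and the transcripts of 10 of them are described here: mt-Nd1, mt-Nd2, mt-Nd4, mt-Nd5, mt-Nd6, mt-Cytb, mt-Co1, mt-Co2, mt-Co3 and mt-Atp6. They were chosen by symbol alone, as 10 of 24551 genes in the table of labelling windows and 10 of 22911 genes in the table of Klf17 genotypes. The study followed polyadenylated RNA of mouse preimplantation embryos by SLAM-seq, in which the uridine analogue 4-thiouridine (4SU) enters RNA that is being made. Embryos came from in vitro fertilisation and stood in 2 mM 4SU for 6 h. The windows comprised MII oocytes, eggs arrested at the metaphase of meiosis II, and embryos labelled at 0-6, 6-12, 12-18, 18-24, 24-30, 30-36, 48-54, 70-76 or 90-96 hours post insemination (hpi). Each of these 10 groups was labelled wild type (WT) and had 3 libraries of 10 embryos. For the 0-6hpi window, sperm and the complexes of oocytes with their cumulus cells were also placed in 4SU. The genotype set held 4SU-labelled embryos of the M2C stage, with 3 control libraries (ctrl, WT), 3 labelled Klf17 KO, 3 labelled Klf17 maternal KO (mKO) and 2 labelled Klf17 paternal KO (pKO). Klf17 encodes a Kruppel-like transcription factor, and which part of the gene was deleted, the mouse strain and the origin of the replicates are not given in the sources used here. All p-values therefore measure the spread between these libraries.

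The proteins made from these transcripts are core subunits of the respiratory chain. The Nd genes encode membrane subunits of complex I (NADH dehydrogenase), mt-Cytb encodes cytochrome b of complex III, the Co genes encode the catalytic core of complex IV (cytochrome c oxidase) and mt-Atp6 encodes a membrane subunit of ATP synthase. They are cut out of long transcripts that a mitochondrial RNA polymerase makes from both strands of the circular genome, and most receive short poly(A) tails, which lets oligo-dT primed libraries capture them. Eggs hold a large stock of mitochondria and mitochondrial DNA, and it is textbook knowledge that the embryo does not replicate this DNA in bulk during the cleavage divisions.

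Total gene counts ran from 7395193 to 13301570 per window library and from 14080264 to 23018252 per genotype library. The labelled stages carried their markers. The 6 oocyte markers (such as Zp3 and Gdf9) summed to 8150 to 8550 CPM (read counts relative to the TMM-scaled library total) in MII oocytes and 43.6 to 167 CPM in the last windows. The 5 markers of the 2-cell embryo reached 1550 to 1790 CPM at 18-24hpi and 664 to 1100 CPM in ctrl and KO, and the 5 blastocyst markers reached 5420 to 8820 CPM at 90-96hpi. Markers of cumulus and granulosa cells summed to at most 58.5 CPM and sperm markers to at most 8.2 CPM in any library. Klf17 itself was counted at 595.9, 804.5 and 745.6 CPM in ctrl and at 672.4, 602.6 and 727.9 CPM in the libraries labelled KO. These ranges overlapped and edgeR's quasi-likelihood test with Benjamini-Hochberg adjustment found no difference (log2 fold change -0.10, SE 0.30, adjusted p = 0.869). The counts thus did not show the labelled deletion, and the groups are named by their labels throughout.

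The 10 transcripts were not counted alike, and position in the mitochondrial genome separated them. In RefSeq's GRCm38 annotation mt-Nd1 lies at MT 2751 to 3707, mt-Nd2 at 3914 to 4951, mt-Co1 at 5328 to 6872, mt-Co2 at 7013 to 7696, mt-Atp6 at 7927 to 8607, mt-Co3 at 8607 to 9390, mt-Nd4 at 10167 to 11544, mt-Nd5 at 11742 to 13565, mt-Nd6 at 13552 to 14070 and mt-Cytb at 14145 to 15288. Each is an intronless coding gene. On nuclear chromosome 1, at 24611535 to 24616197 of GRCm38 on the minus strand, lie 7 annotated genes and pseudogenes that mirror a stretch of mitochondrial DNA in order and length. When Gm10925 was set beside mt-Atp6, this stretch corresponded to MT 6381 to 11043. It holds all of mt-Co2, mt-Atp6 and mt-Co3, 63.6% of mt-Nd4, 31.8% of mt-Co1 and none of the other 5. The placement used annotated positions and lengths only, and no sequences were compared. Copies elsewhere in the nuclear genome were not searched for.

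mt-Co2 received 1 read among 293227154 counts in the 30 window libraries and 0 reads among 200532038 counts in the 11 genotype libraries. A count of 0 there allows up to 0.015 CPM, a limit that covers counting error only. mt-Atp6 received 10 and 7 reads, and mt-Co3 2677 and 2439. These levels stood far below their neighbours on the same genome. Scaled by length, the median level of mt-Co3 over the window libraries was 10.21 CPM per kb, against 752.7 for mt-Co1, 826 for mt-Nd4, 772.5 for mt-Nd5, 769.2 for mt-Nd6, 1697 for mt-Nd2, 2545 for mt-Nd1 and 2926 for mt-Cytb. The 3 mitochondrial protein genes outside the chosen 10 followed the same division. mt-Atp8, mt-Nd3 and mt-Nd4l lie wholly inside the stretch and had median levels of 0.481, 143.4 and 69.33 CPM per kb. Medians of the 6 genes wholly inside ran from 0 to 143.4 CPM per kb, those of the 2 genes partly inside from 752.7 to 826, and those of the 5 genes outside from 769.2 to 2926. In the genotype libraries the same classes ran from 0 to 218.7, 2030 to 3222 and 981.9 to 17280 CPM per kb. The tables of windows and genotypes hold no row for the 7 nuclear copies. How reads that match several places were counted is not given in the sources used here, and its part in these levels was not tested. Levels of mt-Co2, mt-Atp6, mt-Co3, mt-Co1 and mt-Nd4 are therefore uncertain as amounts of RNA, and mt-Co2 and mt-Atp6 did not pass the low-count filter. The other 8 were tested in both sets.

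**Figure D1:**
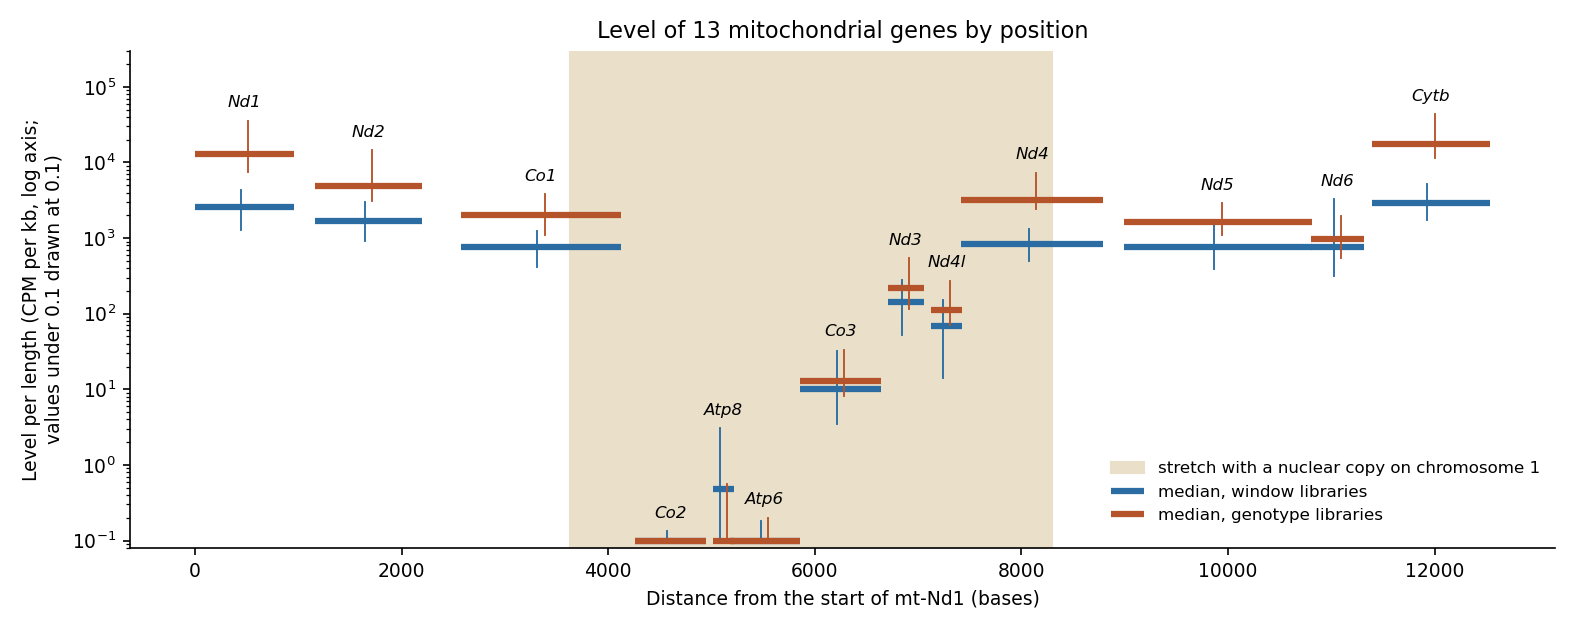
Level of the 13 mitochondrial protein genes by distance from the start of mt-Nd1 in bases. Thick lines span each gene at its median CPM per kb (log axis) in the 30 window libraries (blue) and the 11 genotype libraries (red), thin lines run from the lowest to the highest library, and the shaded area is the stretch with a nuclear copy. The 6 genes wholly inside it have medians of at most 143.4 CPM per kb in the window libraries, while the 5 outside it have medians of at least 769.2.

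As a share of all gene counts, the 10 transcripts together took 1.05%, 1.08% and 1.22% in the MII libraries (mean 1.115% ± 0.0886, SD, n = 3). After insemination the share was 0.695%, 0.813% and 0.679% at 0-6hpi and 0.920%, 1.01% and 0.958% at 6-12hpi. All 0-6hpi libraries lay below all MII libraries, and all 6-12hpi libraries lay between those groups. The share was 1.48%, 1.57% and 1.32% at 12-18hpi, 1.66%, 1.72% and 1.48% at 18-24hpi, and 2.08%, 2.06% and 1.91% at 24-30hpi. The 24-30hpi libraries were the highest of all 30, above the highest 90-96hpi library. At 30-36hpi the libraries spread widely, at 1.51%, 1.35% and 0.902%, and at 48-54hpi they were at 0.802%, 0.654% and 0.774%. The share was 0.972%, 0.842% and 1.16% at 70-76hpi and 1.37%, 1.85% and 1.77% at 90-96hpi. The time course of the share thus had high values at 24-30hpi and 90-96hpi and low values at 0-6hpi and 48-54hpi. The libraries of the 2 low windows overlapped each other. The rise of the share from 18-24hpi to 24-30hpi was not seen in TMM-scaled levels. There 0 of 8 tested transcripts were called (edgeR adjusted p below 0.05), with a median log2 fold change of -0.06. In the order of the means, 90-96hpi, 18-24hpi, 12-18hpi, 30-36hpi, MII, 70-76hpi and 6-12hpi each overlapped the next, so neighbours in that order are not resolved. Groups farther apart did separate: every 6-12hpi library lay below every MII library, and every MII library below every 12-18hpi and 90-96hpi library.

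The mean share at 0-6hpi was 0.654 times that of MII oocytes (difference -0.386 percentage points). It was 1.32 times as high at 6-12hpi as at 0-6hpi, 1.51 times as high at 12-18hpi as at 6-12hpi and 1.25 times as high at 24-30hpi as at 18-24hpi. It was 0.621 times as high at 30-36hpi as at 24-30hpi and 0.594 times as high at 48-54hpi as at 30-36hpi. It was 1.33 times as high at 70-76hpi as at 48-54hpi and 1.68 times as high at 90-96hpi as at 70-76hpi. In each of these steps the libraries did not overlap and the exact permutation test (two-sided, over libraries) gave p = 0.1, the smallest that 3 libraries against 3 allow, or 0.123 adjusted over the 16 comparisons made. The step from 12-18hpi to 18-24hpi was 0.163 points, with overlapping libraries (exact permutation p = 0.2). None of these comparisons can pass 0.05. A share is relative, so less mitochondrial RNA per embryo and more other polyadenylated RNA cannot be told apart.

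**Figure D2:**
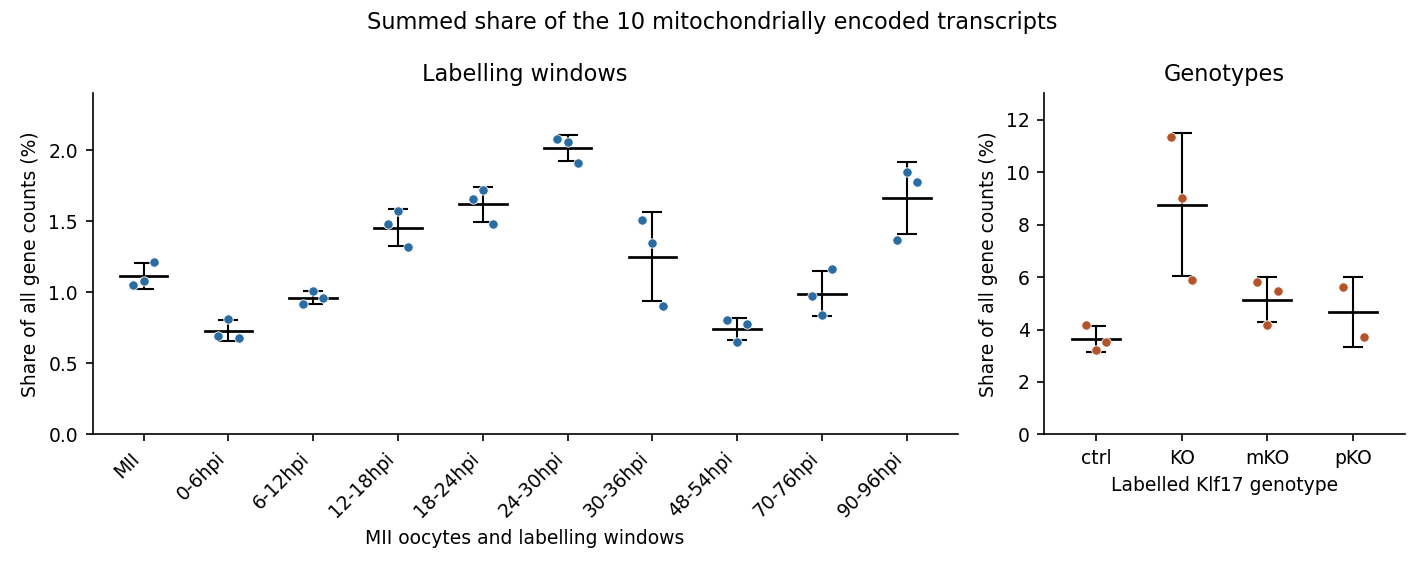
Summed share of all gene counts on the 10 transcripts (percent) in MII oocytes and the 9 labelling windows (left) and in the 4 labelled Klf17 genotypes (right, a different scale). Points are libraries, horizontal bars are means and error bars are 1 SD (n = 3, but 2 for pKO). The share is highest among the windows at 24-30hpi (mean 2.017%), and the libraries labelled KO lie between 5.91% and 11.36%, above all ctrl libraries.

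Fertilisation was followed by lower levels of every mitochondrial transcript that could be tested. From MII to 0-6hpi, 8 of 8 fell and 0 rose, where 21.2% of the 16234 genes tested were called, with 8.28% falling and 12.9% rising. The median log2 fold change of the 8 was -0.86, beside 0.03 over all genes. mt-Nd6, the complex I subunit encoded on the opposite strand from the other 9, stood at 468, 512.6 and 444.5 CPM in MII oocytes and at 208.5, 230.2 and 226.5 CPM at 0-6hpi. It fell the most (log2 fold change -1.10, SE 0.18, adjusted p = 2.81e-05, edgeR's quasi-likelihood test with Benjamini-Hochberg adjustment). The strand that was counted is not given, so counts of mt-Nd6 here and below may include reads of the opposite strand. mt-Cytb stood at 3613, 3986 and 4593 CPM and then at 2487, 3067 and 2529 CPM. It fell the least (log2 fold change -0.59, SE 0.12, edgeR adjusted p = 0.00045). In all 8 genes each 0-6hpi library was below each MII library. mt-Nd1, mt-Nd2, mt-Nd4, mt-Nd5 and mt-Co1 fell by 0.86, 0.96, 0.80, 0.85 and 0.71 on the log2 scale, and mt-Co3 fell by 0.91 from 9.19 ± 1.04 to 4.88 ± 0.563 CPM. The call of mt-Co3 (edgeR adjusted p = 0.0336) did not hold with total counts as the scale, with no filter on low counts, or when MII replicate 2 or 3 or any 0-6hpi library was left out (adjusted p up to 0.126). Total counts as the scale moved the median of all genes from 0.03 to 0.19 and that of the 8 from -0.86 to -0.70, and rises made up 60.9% of all calls against 78.3% with that scale and 49.4% with DESeq2 size factors.

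The next steps held rises and no falls. From 0-6hpi to 6-12hpi, 2 of 8 rose and 0 fell, where 7.66% of all genes were called, with 4.73% rising and 2.93% falling. mt-Nd1 went from 1377, 1833 and 1239 CPM to 2251, 2405 and 2225 CPM, with no overlap (log2 fold change 0.63, SE 0.14, edgeR adjusted p = 0.00192). mt-Nd5 had means of 839.4 ± 105.3 and 1149 ± 98.9 CPM and was called higher (log2 fold change 0.45, SE 0.14, edgeR adjusted p = 0.0441). mt-Co1 was at 1055 ± 137.5 and 1061 ± 86.39 CPM, with overlapping libraries. Only mt-Nd1 was called without any 1 of 5 of these 6 libraries, and neither was called without 0-6hpi replicate 3. From 6-12hpi to 12-18hpi, 6 of 8 rose and 0 fell, where 13.2% of all genes were called, with 7.11% rising and 6.09% falling. mt-Cytb went from 3282, 3426 and 3172 CPM to 5224, 5893 and 4835 CPM (log2 fold change 0.69, SE 0.12, edgeR adjusted p = 0.000126). mt-Nd2 rose by 0.83 (SE 0.15), mt-Nd1 by 0.70 (SE 0.14), mt-Co1 by 0.68 (SE 0.14), mt-Nd4 by 0.55 (SE 0.14) and mt-Nd5 by 0.49 (SE 0.14) on the log2 scale. mt-Nd6 and mt-Co3 were not called, at 311.2 ± 45.75 and then 431.9 ± 16.21 CPM for mt-Nd6 and at 5.08 ± 1.11 and then 7.74 ± 0.983 CPM for mt-Co3. In all 8 genes the libraries of these windows did not overlap. The calls of mt-Nd4 and mt-Nd5 did not hold with replicate 1 or 3 of 6-12hpi or replicate 1 or 2 of 12-18hpi left out, and that of mt-Nd5 also not with replicate 3 of 12-18hpi left out or with total counts as the scale (highest adjusted p 0.114 for mt-Nd4 and 0.272 for mt-Nd5). With that scaling, rises made up 43.4% of all calls in this step, against 53.8%.

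Set against MII oocytes directly, most transcripts of 12-18hpi embryos had overlapping libraries and no call. Of the 8, 2 rose and 0 fell, where 43.9% of all genes were called (27.9% rose and 16% fell), and the median of the 8 was 0.11 beside 0.33 over all genes. mt-Nd1 stood at 2432, 2579 and 3073 CPM in MII oocytes and at 3621, 4108 and 3451 CPM in the 12-18hpi libraries (log2 fold change 0.47, SE 0.14, edgeR adjusted p = 0.00551). mt-Cytb was 5317 ± 535.1 against 4064 ± 494.6 CPM (log2 fold change 0.39, SE 0.12, edgeR adjusted p = 0.0101). In both genes the libraries did not overlap, while those of the other 6 did. Neither was called without 12-18hpi replicate 1 or 2, and mt-Cytb was not called without MII replicate 1 or 12-18hpi replicate 3 or with DESeq2 (adjusted p up to 0.407).

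In the next 2 steps none of the tested transcripts was called. In the step to 18-24hpi 0 of 8 were called with edgeR's quasi-likelihood test (1 at an unadjusted p below 0.05, and 1 with DESeq2), where 33% of all genes were called (18.1% rose and 14.9% fell). In the step to 24-30hpi 0 of 8 were called (0 at an unadjusted p below 0.05, and 0 with DESeq2), where 45.4% of all genes were called (21% rose and 24.4% fell). mt-Cytb stood at 5034, 5317 and 4995 CPM at 18-24hpi and at 4787, 5357 and 4785 CPM at 24-30hpi, inside the range of the 12-18hpi libraries but for 2 values just under it. mt-Nd5 stood at 1613 ± 71.84, 1847 ± 170.8 and 1881 ± 111.1 CPM in these 3 windows. mt-Nd1 was 3781 ± 130.3 CPM at 18-24hpi and 3173 ± 207.8 CPM at 24-30hpi, and its libraries did not overlap, although the fit made no call (edgeR adjusted p = 0.132). With total counts as the scale, 2 of 8 rose at 24-30hpi. That scale moved the median of all genes in this step from -0.12 to 0.28 and the rises among all calls from 46.3% to 69%.

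Between 24-30hpi and 30-36hpi all tested transcripts fell again, and by similar amounts. Of the 8, 8 fell and 0 rose, where 49.9% of all genes were called (29% fell and 21% rose), and the median of the 8 was -0.75 beside -0.23 over all genes. mt-Nd2 went from 2363, 2531 and 2209 CPM to 1565, 1499 and 947.7 CPM (log2 fold change -0.83, SE 0.15, edgeR adjusted p = 2.38e-05). mt-Nd4 went from 1504, 1584 and 1468 CPM to 1104, 1079 and 742.6 CPM and fell the least (log2 fold change -0.64, SE 0.14, edgeR adjusted p = 0.00018). No 30-36hpi library reached the lowest 24-30hpi library in any of the 8 genes, and replicate 3 was the lowest 30-36hpi library in all 8. mt-Co1 and mt-Nd6 fell by 0.77, mt-Nd1 and mt-Co3 by 0.75, mt-Nd5 by 0.73 and mt-Cytb by 0.66 on the log2 scale. The call of mt-Co3 did not hold when scaled by total counts or DESeq2 size factors, unfiltered, fitted on the 2 groups alone, or with any 24-30hpi library or 30-36hpi replicate 3 left out (adjusted p up to 0.203). The other 7 kept their calls with each of these choices, but none of the 8 reached a 2-fold change.

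From 30-36hpi to 48-54hpi, 4 of 8 fell and 0 rose, where 62% of all genes were called (33.3% fell and 28.7% rose). The complex IV transcripts were among them. mt-Co3 was at 10.06, 10.97 and 5.745 CPM and then at 3.463, 2.705 and 5.021 CPM, with no overlap (log2 fold change -1.26, SE 0.32, edgeR adjusted p = 0.000868). mt-Co1 was at 1180, 1106 and 735.7 CPM and then at 804.5, 632.3 and 795.9 CPM, and its libraries overlapped (log2 fold change -0.44, SE 0.14, edgeR adjusted p = 0.00727). mt-Nd5 fell by 0.45 (SE 0.14) and mt-Nd4 by 0.34 (SE 0.14), also with overlap, and mt-Nd1, mt-Nd2, mt-Nd6 and mt-Cytb were not called. The count depended on single libraries and on the scale. It was 1 without 30-36hpi replicate 1, 7 without 30-36hpi replicate 3 or 48-54hpi replicate 1 or 3, and 8 with total counts as the scale, which moved the median of all genes from -0.19 to -0.67 and the rises among all calls from 46.2% to 32.5%.

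In the next step the part of the tested transcripts that rose was close to that of all genes. From 48-54hpi to 70-76hpi, 2 of 8 rose and 0 fell, where 43.4% of all genes were called (21.6% rose and 21.8% fell). mt-Nd6 went from 251.7, 206.9 and 225.8 CPM to 562.5, 347.1 and 485.5 CPM (log2 fold change 1.03, SE 0.18, edgeR adjusted p = 2.16e-05). mt-Nd5 went from 926.2, 717.2 and 843.1 CPM to 1138, 1011 and 1444 CPM (log2 fold change 0.53, SE 0.14, edgeR adjusted p = 0.00271). Neither gene's libraries overlapped. mt-Cytb, by contrast, was at 2709, 2426 and 2817 CPM and then at 2255, 2012 and 2538 CPM, with overlap and no call (edgeR adjusted p = 0.142). Of the complex I transcripts, mt-Nd1, mt-Nd2 and mt-Nd4 were not called either (edgeR adjusted p = 0.0537, 0.208 and 0.261). The count was 4 without 70-76hpi replicate 1, 1 without 70-76hpi replicate 3 (mt-Nd5 was lost, adjusted p = 0.0501) and 6 with total counts as the scale. That scale moved the median of all genes from 0 to 0.21 and the rises among all calls from 49.8% to 61.7%.

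From 70-76hpi to 90-96hpi, 6 of 8 rose and 0 fell, where 39.6% of all genes were called (20.1% rose and 19.5% fell), and the median of the 8 was 0.84 beside 0.07 over all genes. mt-Nd6 reached 982.1, 1693 and 1518 CPM, every library above the highest of the preceding window (log2 fold change 1.59, SE 0.18, edgeR adjusted p = 1.82e-08). mt-Co3 went from 4.912, 4.85 and 5.716 CPM to 14.62, 25.42 and 22.64 CPM, also without overlap (log2 fold change 2.02, SE 0.31, edgeR adjusted p = 2.76e-06). mt-Nd5 reached 1958, 2828 and 2574 CPM (log2 fold change 1.04, SE 0.14, edgeR adjusted p = 3.79e-07). mt-Nd4, mt-Nd2 and mt-Nd1 rose by 0.86 (SE 0.14), 0.82 (SE 0.15) and 0.37 (SE 0.14) on the log2 scale. mt-Cytb was 2268 ± 263.3 CPM before and 2577 ± 109.6 CPM after, and mt-Co1 902.5 ± 195.1 and 1117 ± 56.52 CPM, both with overlap and no call. The call of mt-Nd1 (edgeR adjusted p = 0.0308) did not hold with DESeq2 or its size factors, unfiltered, fitted on the 2 groups alone, or with 70-76hpi replicate 1 or 2 or any 90-96hpi library left out (adjusted p up to 0.164). The calls of the other 5 held with each of these choices, and 3 of them (mt-Nd5, mt-Nd6 and mt-Co3) reached a 2-fold change.

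**Figure D3:**
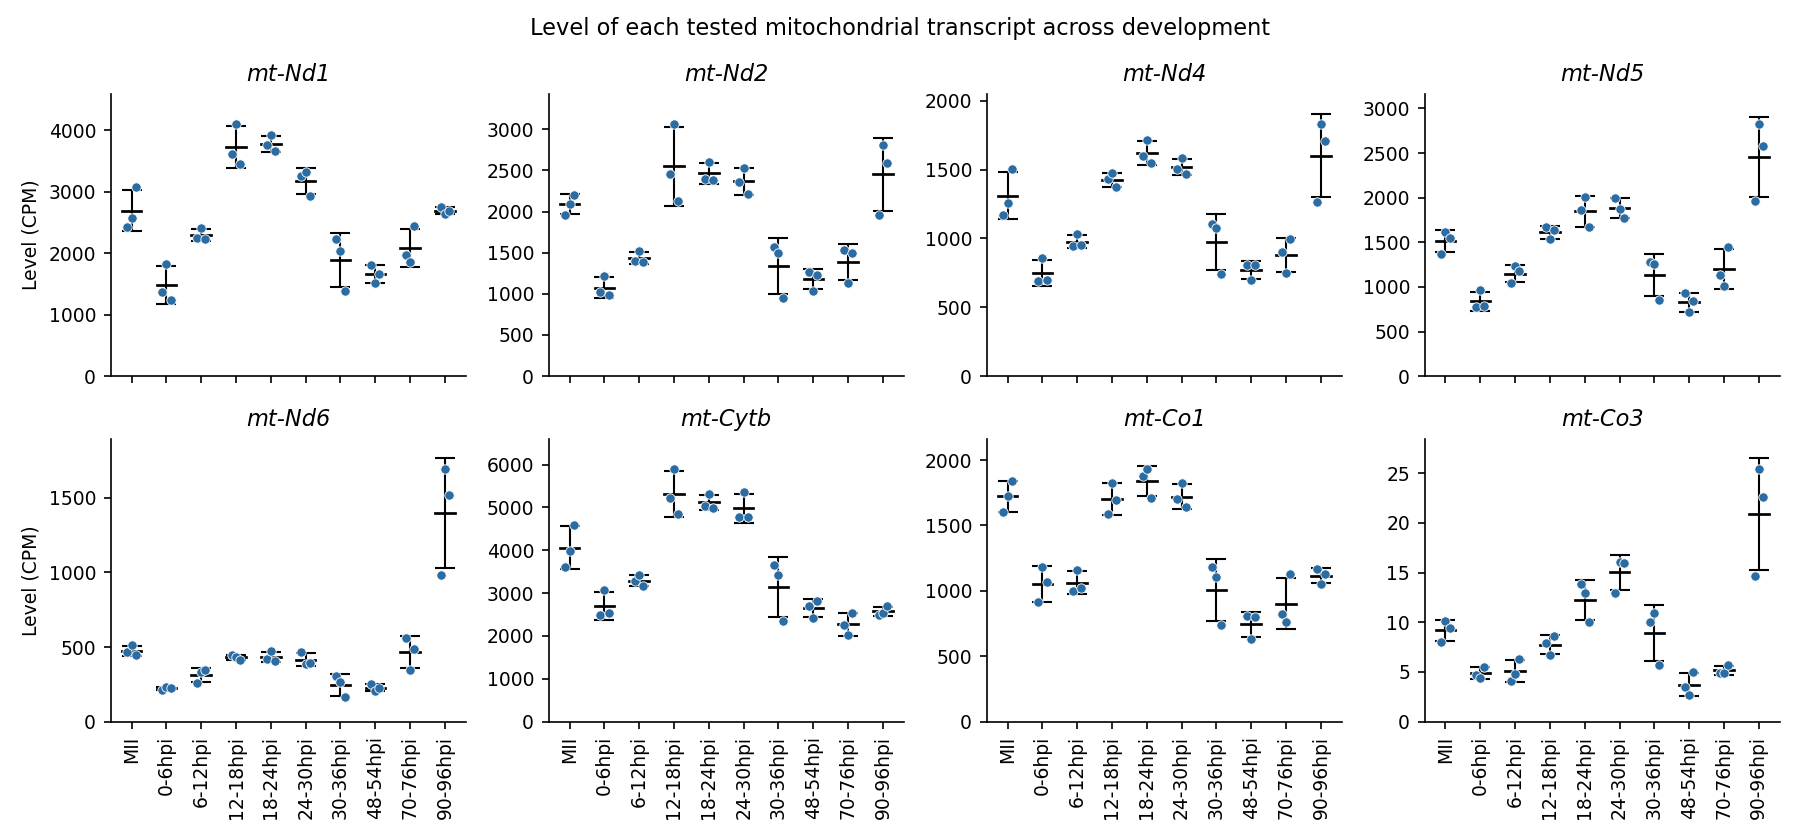
Level (TMM-scaled CPM, linear axes that start at 0) of the 8 tested transcripts in MII oocytes and the 9 windows. Points are libraries, horizontal bars are means and error bars are 1 SD (n = 3). All 8 panels dip at 0-6hpi and again by 48-54hpi, but at 90-96hpi mt-Nd6 reaches 982.1 to 1693 CPM, above every earlier library, while mt-Cytb stays between 2499 and 2702 CPM. Counts of mt-Nd6 may include reads of the opposite strand.

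Comparison of the 90-96hpi embryos with MII oocytes set these differences side by side. Of the 8, 4 rose and 2 fell, where 81% of all genes were called (42.6% rose and 38.4% fell). mt-Nd6 was 1398 ± 370.4 against 475 ± 34.59 CPM, 2.94-fold higher (log2 fold change 1.56, SE 0.18, edgeR adjusted p = 2.7e-09). mt-Co3 was 20.89 ± 5.608 against 9.19 ± 1.04 CPM (log2 fold change 1.18, SE 0.30, edgeR adjusted p = 0.000639) and mt-Nd5 2453 ± 447.4 against 1513 ± 125.8 CPM (log2 fold change 0.70, SE 0.14, edgeR adjusted p = 4.19e-05). mt-Cytb was lower, at 2577 ± 109.6 against 4064 ± 494.6 CPM (log2 fold change -0.66, SE 0.12, edgeR adjusted p = 1.11e-05). mt-Co1 was also lower, at 1117 ± 56.52 against 1722 ± 117.5 CPM (log2 fold change -0.63, SE 0.14, edgeR adjusted p = 0.000138). The libraries of these 5 genes did not overlap between the groups. mt-Nd4 was called higher with overlapping libraries (log2 fold change 0.29, SE 0.14, edgeR adjusted p = 0.0487), a call lost with DESeq2, in a fit of the 2 groups alone and when MII replicate 1 or 90-96hpi replicate 2 or 3 was left out (adjusted p up to 0.26). mt-Nd1 had the same mean in both groups, 2695 CPM. With total counts as the scale, which moved the median of all genes from 0.27 to 0.79, 6 rose and 0 fell, and mt-Cytb and mt-Co1 were not called (adjusted p = 0.334 and 0.516).

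The make-up of the mitochondrial counts does not depend on that scale. Of all reads on the 10 transcripts, mt-Cytb took 29.24% ± 0.847 in MII oocytes, 24.73% ± 0.741 at 70-76hpi and 18.11% ± 1.71 at 90-96hpi. mt-Nd6 took 3.448% ± 0.456, 5.045% ± 0.935 and 9.651% ± 1.66 in the same groups, and mt-Nd5 10.93% ± 0.796, 12.97% ± 0.680 and 17.04% ± 1.42. mt-Cytb thus made up less of the mitochondrial counts in late embryos, and mt-Nd5 and mt-Nd6 more. Between MII and 90-96hpi the libraries did not overlap for mt-Cytb (-11.1 points), mt-Nd6 (6.2 points), mt-Nd5 (6.11 points), mt-Co1 (-4.54 points), mt-Nd2 (1.96 points), mt-Nd4 (1.7 points) or mt-Co3 (0.0779 points). For each of these 7 the exact permutation test gave p = 0.1, the smallest possible, or 0.2 adjusted over 32 tests. mt-Nd1 took 19.39% ± 0.760 and 19.01% ± 2.53, with overlap (exact permutation p = 0.9). Between MII and 24-30hpi the differences were at most 1.73 points in either direction. The libraries did not overlap for mt-Co1 (-1.73 points), mt-Nd6 (-0.858 points) or mt-Co3 (0.0273 points). Each had the smallest possible exact permutation p of 0.1 (0.2 adjusted), and the libraries of the other tested transcripts overlapped.

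**Figure D4:**
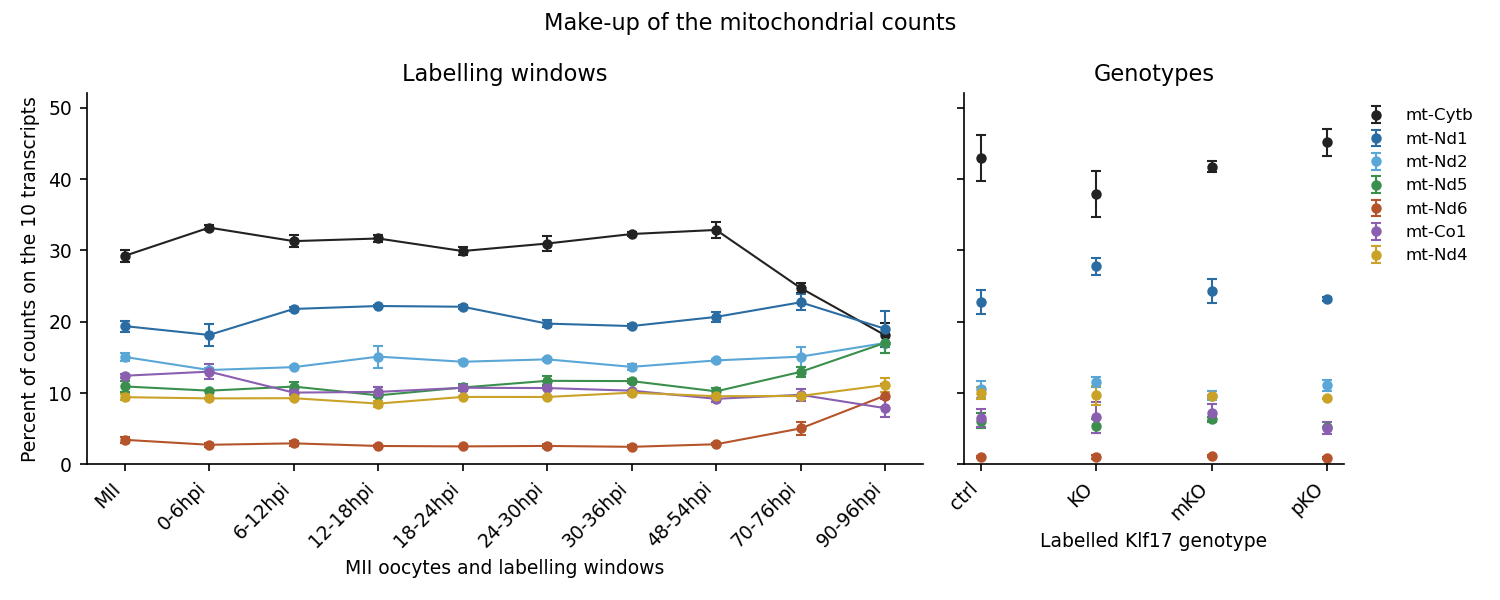
Percent of the counts on the 10 transcripts that fell on each of 7 of them, in MII oocytes and the labelling windows (left) and the labelled Klf17 genotypes (right). Points are means, error bars 1 SD (n = 3, but 2 for pKO), and lines join groups of the time course. The line of mt-Cytb drops from 29.24% in MII oocytes to 18.11% at 90-96hpi while that of mt-Nd6 goes from 3.448% to 9.651%. Counts of mt-Nd6 may include reads of the opposite strand.

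The order of levels per length changed accordingly. In MII oocytes mt-Cytb (3553 ± 432.1 CPM per kb) and mt-Nd1 (2816 ± 351.1) led and overlapped each other, followed without overlap by mt-Nd2 (2010 ± 116.6). mt-Co1 (1115 ± 76.53), mt-Nd4 (951.1 ± 123.4), mt-Nd6 (915.3 ± 66.63) and mt-Nd5 (829.5 ± 68.98) followed, each overlapping the next, and mt-Co3 (11.72 ± 1.33) was far below. At 24-30hpi the order was the same except that mt-Nd5 (1032 ± 60.95 CPM per kb) stood above mt-Nd6 (800.6 ± 86.86). At 90-96hpi mt-Nd1 (2817 ± 63.13 CPM per kb), mt-Nd6 (2693 ± 713.5), mt-Nd2 (2361 ± 423.6) and mt-Cytb (2252 ± 96.15) each overlapped the next. The overlaps named here compare ranges over libraries and do not pair genes within a library. mt-Cytb had the highest level per kb in 24 of 30 window libraries, mt-Nd1 in 4 and mt-Nd6 in 2. mt-Nd6 shares 14 bases with mt-Nd5 and lies opposite the transcript of the other strand. The strand that was counted is not given, and this library method does not mark strand, so reads of mt-Nd6 and reads of the opposite strand cannot be told apart. That holds for every level and call of mt-Nd6 given here. Across the 30 window libraries the log2 levels of mt-Nd2 and mt-Nd4 were the most alike (Pearson r = 0.975) and those of mt-Cytb and mt-Nd6 the least (r = 0.079). These correlations describe libraries that share scale factors and are given without a test.

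Proteins from the nucleus complete complexes I, III and IV and ATP synthase (complex V), and their transcripts followed another course. Complex II is listed as well, but none of the mitochondrial transcripts described here encodes a part of it. From MII to 0-6hpi, when every tested mitochondrial transcript fell, 14 of 36 nuclear genes of complex I rose and 1 fell (median log2 fold change 0.41), and 9 of 16 of complex V rose and 0 fell (median 0.61), beside 0.03 over all genes, of which 12.9% rose and 8.28% fell. Atp5g1, which encodes the membrane ring subunit of ATP synthase, rose from 8.81 ± 1.48 to 38.6 ± 3.88 CPM. In complex II 3 of 4 rose and 0 fell, in complex III 4 of 9 rose and 0 fell, and complex IV went both ways (4 of 12 rose and 3 fell). Between 24-30hpi and 30-36hpi, where 21% of all genes rose and 29% fell, 19 of 36 genes of complex I rose and 4 fell. In the same step 2 of 4 of complex II rose and 1 fell, 6 of 9 of complex III rose and 0 fell, 4 of 12 of complex IV rose and 4 fell, and 9 of 16 of complex V rose and 0 fell. From MII to 90-96hpi, where 42.6% of all genes rose and 38.4% fell, nearly the whole set was higher: 35 of 36 genes of complex I, 3 of 4 of complex II, 8 of 9 of complex III, 12 of 12 of complex IV and 16 of 16 of complex V rose. Their medians were 4.72, 2.01, 5.48, 2.69 and 4.79 on the log2 scale, beside 0.27 over all genes and 0.26 for the 8 mitochondrial transcripts. Those that fell were Sdha of complex II, from 218.1 ± 32.43 to 107.2 ± 25.9 CPM, and Uqcrc2 of complex III, from 444.8 ± 18.84 to 319.9 ± 75.5 CPM, and the latter was not called with total counts as the scale. mt-Cytb, whose protein works beside Uqcrc2 in complex III, was lower in the same comparison, while the complex III genes Uqcrc1 and Cyc1 rose from 1.05 ± 1.06 to 341.2 ± 130.8 CPM and from 1.14 ± 0.89 to 252 ± 45.99 CPM.

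The nuclear genes that make, process and copy mitochondrial nucleic acids were mixed. Of 11 genes of mitochondrial transcription, 2 rose and 0 fell from MII to 0-6hpi, where 12.9% of all genes rose, and again 2 and 0 in the step to 6-12hpi, where 4.73% rose. In the step to 12-18hpi 1 rose and 3 fell, where 7.11% of all genes rose and 6.09% fell. In the same order the counts were 3 and 3 at 18-24hpi (18.1% and 14.9% of all genes) and 4 and 2 at 24-30hpi (21% and 24.4%). They were 7 and 0 at 30-36hpi (21% and 29%) and 5 and 1 at 48-54hpi (28.7% and 33.3%). Later they were 1 and 5 at 70-76hpi (21.6% and 21.8%) and 0 and 4 at 90-96hpi (20.1% and 19.5%). In the last step Polrmt, the mitochondrial RNA polymerase, dropped to 11.13 ± 1.63 CPM from a mean of 30.86 ± 4.75 CPM (log2 fold change -1.47, SE 0.30, edgeR adjusted p = 0.000123), and Tfb2m, its initiation factor, to 22.16 ± 2.83 CPM from 45.86 ± 6.90 CPM (log2 fold change -1.05, SE 0.16, edgeR adjusted p = 1.11e-06). Tefm, the transcription elongation factor, rose from 20.48 ± 7.12 to 96.2 ± 8.97 CPM between 24-30hpi and 30-36hpi. From MII to 90-96hpi, where 42.6% of all genes rose and 38.4% fell, 9 of 24 genes of mitochondrial RNA processing and turnover rose and 13 fell, with a median of -0.47 that was 0.05 with total counts as the scale. Angel2 fell from 1048 ± 80.66 to 19.19 ± 9.42 CPM, and Nsun4, which methylates mitochondrial ribosomal RNA, from 144.8 ± 26.83 to 8.81 ± 3.62 CPM. Of 17 genes of mitochondrial DNA replication 11 rose and 6 fell. Polg, the catalytic subunit of the mitochondrial DNA polymerase, rose from 2.35 ± 0.605 to 40.14 ± 0.816 CPM, and Rrm2b, a ribonucleotide reductase subunit, fell from 852.9 ± 58.93 to 9.86 ± 6.72 CPM. Among 12 translation factors of mitochondria 4 rose and 5 fell, and among 10 regulators of mitochondrial biogenesis 5 rose and 2 fell. Over all genes 81% were called in this comparison, so counts of this size are not particular to these lists.

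Of 9108 nuclear genes compared, those whose log2 level over the 30 window libraries was most like that of the summed mitochondrial transcripts were Hypk (Pearson r = 0.905), Serf2 (0.871), Snrpg (0.865), Ppp1cb (0.824) and Rab9 (0.814). Hypk encodes a partner of the N-terminal acetyltransferase NatA. It had means of 590 CPM in MII oocytes, 347.1 at 0-6hpi, 663.3 at 18-24hpi, 229.2 at 48-54hpi and 482.9 at 90-96hpi. Snrpg, a core protein of spliceosomal particles, had 367.1, 234, 407.5, 180.4 and 405.6 CPM in the same groups. Both were lower at 0-6hpi than in MII oocytes, and the lowest mean of Hypk was at 48-54hpi while that of Snrpg (169.5 CPM) was at 30-36hpi. These values are a description over libraries that share scale factors, and no test was made.

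In the genotype set the mitochondrial share was larger in every group than in any window library, with a lowest library of 3.22%. The sets come from separate tables, so that gap is given as values only. The 10 transcripts took 4.17%, 3.22% and 3.54% of counts in ctrl (mean 3.644% ± 0.484, SD, n = 3) and 11.36%, 9.03% and 5.91% in the libraries labelled KO (8.765% ± 2.74). Every library labelled KO was above every ctrl library, and the spread within KO was wide. The mean was 2.41 times as high, a difference of 5.12 points (exact permutation p = 0.1, the smallest possible, 0.123 adjusted over 16 comparisons). Leaving out 1 library at a time kept the difference between 3.82 and 6.55 points.

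By gene, 7 of 8 tested transcripts rose in the libraries labelled KO against ctrl and 0 fell, where 8.13% of the 16694 genes tested were called (1.82% rose and 6.31% fell). The median log2 fold change of the 8 was 1.19, beside 0.05 over all genes. mt-Nd1 stood at 9008, 7145 and 8618 CPM in ctrl and at 34020, 26680 and 13990 CPM in KO, 3.02-fold higher (log2 fold change 1.59, SE 0.32, edgeR's quasi-likelihood test with Benjamini-Hochberg adjustment, adjusted p = 0.0121). mt-Nd2 stood at 5014, 3173 and 3408 CPM in ctrl and at 14980, 10510 and 5820 CPM in KO (log2 fold change 1.43, SE 0.35, edgeR adjusted p = 0.0233). mt-Co1 stood at 2178, 2382 and 2441 CPM and at 5840, 5619 and 4761 CPM (log2 fold change 1.21, SE 0.30, edgeR adjusted p = 0.0247). None of these libraries overlapped between the groups, and replicate 3 was the lowest of KO each time. mt-Nd6 stood at 394.8, 363.9 and 379.3 CPM and at 1006, 855.3 and 720.8 CPM (log2 fold change 1.18, SE 0.31, edgeR adjusted p = 0.0299). mt-Cytb stood at 19780, 13030 and 14450 CPM and at 50010, 34940 and 18400 CPM (log2 fold change 1.13, SE 0.34, edgeR adjusted p = 0.047). Its lowest KO library lay within the ctrl range. mt-Nd4 and mt-Nd5 rose by 1.20 (SE 0.29) and 1.07 (SE 0.29) on the log2 scale without overlap, and mt-Co3, at 9.18 ± 0.973 and 16.89 ± 2.75 CPM, was not called (edgeR adjusted p = 0.254).

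These calls rested on the full set of libraries. Without ctrl replicate 2 or 3 or KO replicate 1 or 2, 0 of 8 were called. Without ctrl replicate 1, 3 were called, and without KO replicate 3, 7. Over all genes the number called fell from 1358 to between 0 and 892 when 1 library was left out. The sizes changed less: the median of the 8 stayed between 1.08 and 1.41 on the log2 scale, and mt-Nd1 was 1.34 to 1.93 higher (adjusted p up to 0.0648). All 7 calls held with DESeq2, with other scalings, without the low-count filter and in a fit of the 2 groups alone. The 6 oocyte markers summed to 2640 to 3110 CPM in the libraries labelled KO and 1470 to 2080 CPM in ctrl. The 5 blastocyst markers summed to 40.4 to 96.1 CPM and 24.9 to 38.7 CPM, with Cdx2 at 0 in ctrl. Total counts were 14080264 to 15631152 against 17858094 to 19876670. The part of any of these in the mitochondrial levels was not tested. All 6 oocyte markers had reads in both groups.

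**Figure D5:**
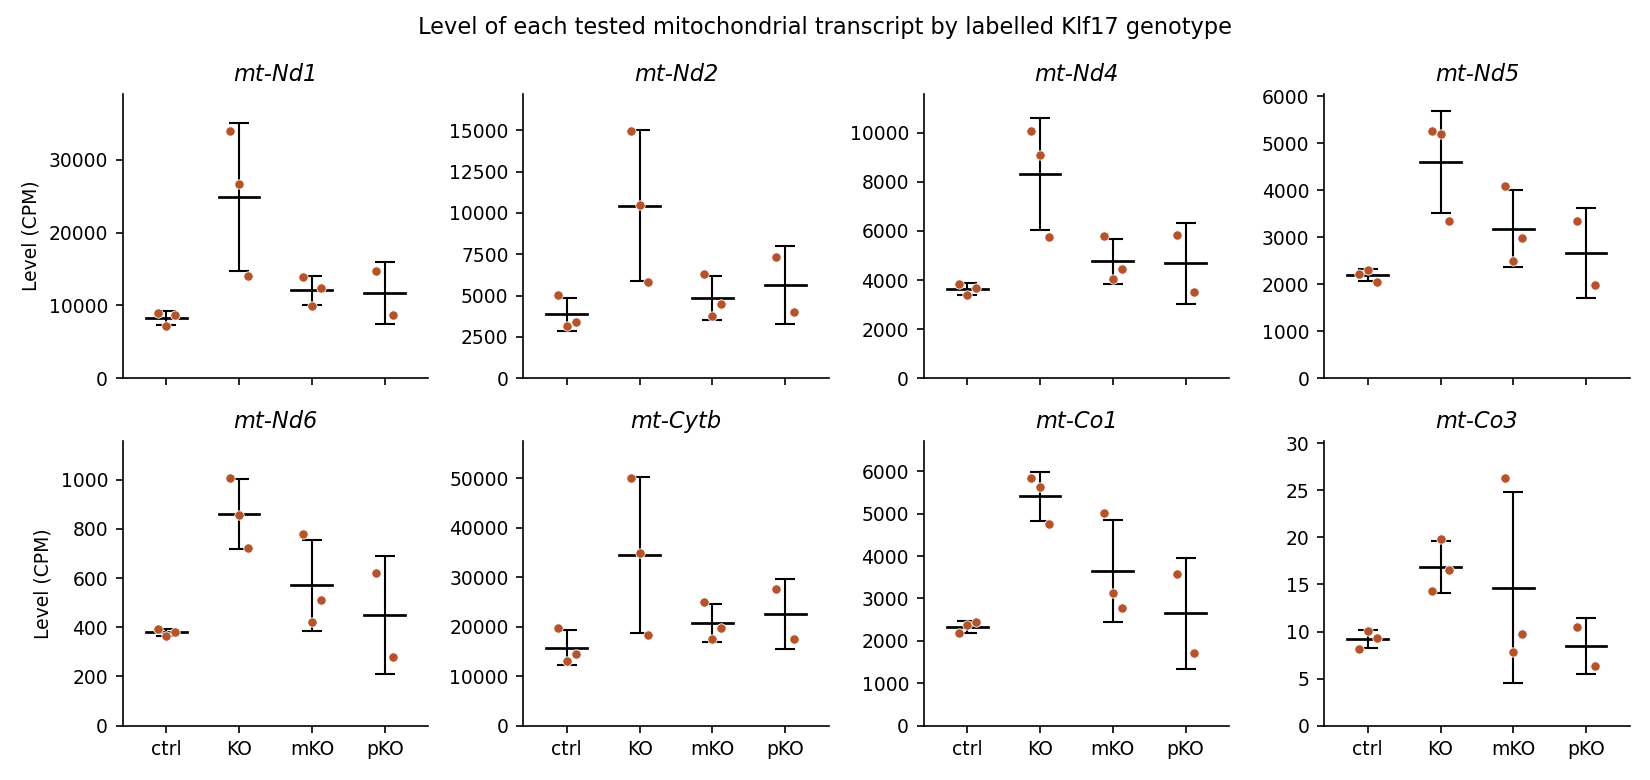
Level (TMM-scaled CPM, linear axes that start at 0) of the 8 tested transcripts in the libraries labelled ctrl, KO, mKO and pKO. Points are libraries, horizontal bars are means and error bars are 1 SD (n = 3, but 2 for pKO). In 7 of 8 panels all KO libraries lie above all ctrl libraries, and in that of mt-Cytb the lowest KO library (18400 CPM) lies within the ctrl range.

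In the make-up of the mitochondrial counts, mt-Nd1 was the 1 transcript whose libraries did not overlap between ctrl and the libraries labelled KO. It took 22.77% ± 1.71 of them in ctrl and 27.76% ± 1.14 in KO (exact permutation p = 0.1, the smallest possible, 0.2 adjusted over 32 tests). mt-Cytb took 42.96% ± 3.18 and 37.9% ± 3.21 (exact permutation p = 0.2), and the libraries of the other 6 overlapped as well. mt-Cytb had the highest level per kb in 11 of 11 genotype libraries, at 13770 ± 3111 CPM per kb in ctrl and 30120 ± 13820 in KO. mt-Nd1 followed with 8628 ± 1027 and 26020 ± 10590 CPM per kb. Its range over libraries was apart from that of mt-Cytb in ctrl but not in KO, although mt-Cytb was the higher within each library.

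The other groups lay between ctrl and KO. The share was 5.80%, 4.18% and 5.45% in mKO, all 3 above ctrl, though the lowest exceeded the highest ctrl library by very little (1.41 times the ctrl mean, exact permutation p = 0.1, the smallest possible, 0.123 adjusted). It was 5.61% and 3.72% in pKO, and those libraries overlapped ctrl (1.28 times, exact permutation p = 0.3). KO was 1.7 times mKO (exact permutation p = 0.1) and 1.88 times pKO (p = 0.2), with no overlap in either. By gene, mt-Nd1 stood at 13900, 9934 and 12360 CPM in mKO and at 14710 and 8668 CPM in pKO. All mKO libraries were above ctrl for this gene, and 1 of 2 pKO libraries was. Against ctrl, 0 of 8 were called in mKO (edgeR, 1 at an unadjusted p below 0.05), where 0% of all genes were called, and the adjusted p ran from 0.668 to 0.843. DESeq2 called 0 of 8 as well, where 32 of 22911 genes rose and 26 fell. In pKO 0 of 8 were called (edgeR, 0 at an unadjusted p below 0.05), where 0% of all genes were called. With DESeq2 0 of 8 were called there, where 0 of 22911 genes rose and 3 fell. Set directly against mKO, KO had 0 of 8 called (edgeR, 4 at an unadjusted p below 0.05), where 0% of all genes were called. DESeq2 also called 0 of 8 in that comparison, but 142 of 22911 genes were called higher and 263 lower. Against pKO, KO had 0 of 8 called (edgeR, 6 at an unadjusted p below 0.05), with adjusted p from 0.0577 to 0.289. Over all genes 12.5% were called (2.83% higher and 9.67% lower). With DESeq2 4 of 8 were called, where 1647 of 22911 genes were higher and 2007 lower. The edgeR count for KO against pKO was 6 with a block on replicate number, 5 with total counts as the scale and 3 without the low-count filter. It was 2 with DESeq2 size factors or a fit of the 2 groups alone. It was also 2 without KO replicate 3 or pKO replicate 1. The calls against ctrl in KO and not in mKO are therefore not shown to be a difference between these genotypes, and a difference from pKO was called under other settings alone. The comparisons with ctrl share the same control libraries.

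In the nuclear lists, the genes called in the libraries labelled KO against ctrl were mostly falls, where 1.82% of all genes rose and 6.31% fell. Of 11 genes of mitochondrial transcription, 0 rose and 3 fell (median -1.16, beside 0.05 over all genes). Polrmt stood at 2.91 ± 1.16 CPM against 22.93 ± 6.33 in ctrl (log2 fold change -2.97, SE 0.71, edgeR adjusted p = 0.0196), and Tefm at 14.39 ± 7.45 against 64.23 ± 27.77 CPM (log2 fold change -2.16, SE 0.43, edgeR adjusted p = 0.0113). Of 24 genes of RNA processing 0 rose and 1 fell (median -0.16), a share no larger than that of all genes: Fastkd5, which helps to mature the transcripts, at 25.74 ± 5.02 against 73.32 ± 8.93 CPM. Of 17 genes of mitochondrial DNA replication 0 rose and 4 fell (median -0.37), among them Top3a and Mgme1. Of 9 biogenesis regulators 0 rose and 2 fell (median -0.34): Nrf1, an activator of nuclear genes for mitochondria, was at 52.57 ± 7.85 against 149.2 ± 36.2 CPM and Pprc1, a coactivator, at 33.14 ± 6.04 against 133.9 ± 20.8 CPM. Of 12 translation factors 0 rose and 2 fell (median -0.81), among them C1qbp. Among the nuclear subunits, 1 of 36 of complex I rose (Ndufa1) and 3 fell, 0 of 4 of complex II were called, 0 rose and 1 fell of 9 of complex III, 0 and 2 of 12 of complex IV, and 0 of 16 of complex V were called. Their medians were -0.58, -0.53, -0.73, -0.31 and -0.43. With 1 library left out in turn the genes that fell numbered 0 to 2 in transcription, 0 in RNA processing, 0 to 4 in DNA replication, 0 to 2 among biogenesis regulators, 0 to 2 among translation factors and 0 or 1 in each complex. The median of the biogenesis regulators then ran from -0.66 to 0.13, and those of the other lists stayed below 0. The count for transcription was 3 to 5 under the other settings tried.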

How the data were processed

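Polyadenylated RNA was measured in 47 libraries, of which 30 (labelling windows) and 11 (Klf17 genotypes) were compared. The 6 libraries of 10, 40 or 100 embryos were used for nuclear copies only, and 14 chromatin accessibility samples were not used. The deposited tables give raw counts of reads by gene, as whole numbers, per the file headers. The 90-96hpi replicate 3 column of the deposited table was handled in the form of estimated counts and rounded, after 1 damaged record was left out. The submitters' processing notes name Trim Galore 0.6.10, STAR 2.7.10a, SAMtools 1.12 and build GRCm38. The counting tool, strand, any parting of T-to-C reads and the handling of reads that match several places are not given in the sources used here.

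The libraries differed from their replicates by more than counting noise (chi-square per degree of freedom 4.22 to 27.4 in windows and 20.5 to 259 in genotypes). Genes passed edgeR's filterByExpr (minimum count 10, total 15), which left 16234 and 16694 genes. All groups of a table were fitted together with edgeR 4.0.16 (TMM, robust quasi-likelihood test, two-sided, no covariates, R 4.3.3), with p-values adjusted over all genes by Benjamini-Hochberg and a threshold of 0.05. CPM values are TMM-scaled, and values per kb use the deposited gene length. Summed shares and make-up were compared by exact permutation over libraries. On simulated counts for 0-6hpi against MII (15423 genes), 69% of genes changed 2-fold and 84% of those changed 4-fold were recovered, and for KO against ctrl (16177 genes) 1% and 54%. Mitochondrial positions come from RefSeq's GRCm38.p6 annotation and nuclear copies from the deposited embryo-number table, which is held here in part.

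The members, gene lists and alternatives were chosen with earlier results of these data known. A fold change is printed for a mitochondrial transcript only where the test called it, and list genes named are at most 2 called per direction with the largest change and at least 20 CPM in the higher group. Alternatives were DESeq2 1.42.0, other scalings, dropping the filter, blocking on replicate number, fitting 2 groups alone and leaving out each library.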

Additional observations from a re-analysis of the deposited data

Results flagged for a closer look

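The table of libraries made from 10, 40 or 100 embryos holds no mitochondrial gene among its records used here, but it does hold the 7 nuclear copies on chromosome 1. Reads on them appeared in all 6 libraries, outside the comparisons above. They numbered 26992 and 3736 with 10 embryos, 2041 and 2089 with 40 embryos, and 4543 and 2331 with 100 embryos. The high library owed most of its reads to Gm28438, the copy of mt-Nd3, with 22263 reads, where the other 5 libraries had 182 to 316. On the other 6 copies the libraries had 4729, 3425, 1846, 1830, 4227 and 2149 reads in the same order. The origin of these reads was not tested.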

How the results depend on the processing

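All 16 differences in share kept their direction under every alternative, and of the 51 called fold changes none reversed. Counts of transcripts called (edgeR's quasi-likelihood test, of 8) moved as follows. With a fold change of at least 2 also required, they were 1 for 0-6hpi against MII, 0 for 6-12hpi, 0 for 12-18hpi, 0 for 30-36hpi, 1 for 48-54hpi, 1 for 70-76hpi and 3 for 90-96hpi, each against the window before it, and 0 for 12-18hpi and 2 for 90-96hpi against MII. Over the 5 transcripts outside the copied stretch on chromosome 1 they were 5 for 0-6hpi, 5 for 30-36hpi, 1 for 48-54hpi and 3 for 90-96hpi against MII, by construction of the smaller set. Total count scaling gave 1 at 6-12hpi, 2 at 24-30hpi, 8 at 48-54hpi, 6 at 70-76hpi and 5 for KO against pKO. Without the low-count filter there were 4 at 6-12hpi, 1 for KO against mKO and 3 for KO against pKO. Over all genes that setting called 935 higher and 449 lower of 24084 at 6-12hpi. Of 22463 genes it called 96 higher and 447 lower for KO against mKO, and 1017 and 1890 for KO against pKO. Fits of 2 groups alone gave 6 at 6-12hpi, 2 at 18-24hpi and 2 for KO against pKO. Calls over all genes rose with them at 6-12hpi, to 1854 higher and 1723 lower of 11867, against 768 and 475 of 16234 in the main fit. They were 2940 and 2374 of 12741 at 18-24hpi, and 767 and 1664 of 15240 for KO against pKO. DESeq2 gave 1 at 18-24hpi, 1 for 12-18hpi against MII, and 4 when KO was set against pKO, and DESeq2 size factors 2 for the last. Of 24551 genes DESeq2 called 3303 higher and 2405 lower at 18-24hpi, and 4383 and 3036 for 12-18hpi against MII. Leaving out 1 library gave 0 to 1 at 6-12hpi, 1 to 7 at 48-54hpi, 1 to 4 at 70-76hpi, 0 to 2 for 12-18hpi against MII, 0 to 7 in KO against ctrl, 0 to 1 for KO against mKO and 0 to 2 for KO against pKO. The cause was not tested. Without 1 pKO library a lone sample is assumed to vary like the other groups.

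Correlations of deviations between libraries of the same replicate number ran from -0.072 to 0.231. They were 0.223 and 0.21 for pKO against ctrl, and 0.231, 0.207 and -0.001 for mKO against ctrl. Whether replicate numbers pair the genotype libraries is therefore not settled. The replicate block gave 6 for KO against pKO, against 0 without it, and it moved no other count by over 1.5 times. Over all genes the block called 860 higher and 1835 lower for KO against pKO, against 472 and 1615 without it. For KO against ctrl the block called 578 higher and 1486 lower, against 304 and 1054 without it. It also ended the call of mt-Nd4 for 90-96hpi against MII. The comparison of 10 with 100 embryos was not run, since the table used has no mitochondrial genes. The counts of mt-Co2, mt-Atp6 and mt-Co3 are low, and the reason was not tested.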
